A study of Mus musculus with 6 samples.

Results

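The mouse Cyp4a genes encode cytochrome P450 enzymes that add a hydroxyl group to the end carbon of medium- and long-chain fatty acids. The 6 genes described here are Cyp4a10, Cyp4a12a, Cyp4a12b, Cyp4a14, Cyp4a31 and Cyp4a32, taken by symbol from the 49315 genes of the deposited table. They were chosen from this comparison, with their lower counts in miR-206 hepatocytes already known, so their values are given as a description without a test. All 6 passed the filter on low counts, which 24382 genes of the table passed.

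The counts came from hepatocytes of 3 male C57BL/6J mice, which were 8 weeks old when a large volume of plasmid solution was forced into the circulation (hydrodynamic injection). Each mouse received 20 μg of a transposon plasmid, in which the hepatocyte promoter of Ttr drives miR-206 and GFP, and 0.8 μg of a Sleeping Beauty transposase plasmid. After 4 weeks hepatocytes were freed by perfusion and sorted by GFP. The GFP-negative fraction gave 3 libraries, called control, and the GFP-positive fraction 3 libraries, called miR-206. The labels give the control cells as wild-type with empty vector and the others as miR-206 overexpression, whereas by the design text both fractions are from the same mice. Nothing states which library came from which mouse, so p-values measure the spread between these libraries. miR-206 is a microRNA best known from skeletal muscle, and the plasmid makes it only in cells where the Ttr promoter is active.

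Fatty acid omega-hydroxylation by Cyp4a enzymes takes place in the endoplasmic reticulum, with electrons from the reductase Por and from cytochrome b5. Its products are oxidised to dicarboxylic acids by alcohol and aldehyde dehydrogenases and shortened in peroxisomes, a route that carries little fatty acid in the fed liver and more in fasting. Cyp4a10 and Cyp4a14 are textbook targets of the nuclear receptor Ppara, which pairs with Rxra, and rise when fatty acids or fibrates activate it. Cyp4a12a and Cyp4a12b are the male-biased, androgen-dependent members, and Cyp4a12a converts arachidonic acid to 20-HETE.

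The genes lie in a cluster on chromosome 4 (GRCm38, GENCODE M21). Cyp4a12a spans chr4:115299046-115332815 and Cyp4a12b chr4:115411624-115439034, both on the plus strand. Cyp4a14 spans chr4:115486200-115496142 on the minus strand. Cyp4a10 at chr4:115518264-115533649, Cyp4a31 at chr4:115563649-115579015 and Cyp4a32 at chr4:115600969-115621602 follow on the plus strand. Their identifiers in the table are ENSMUSG00000066071 for Cyp4a12a, ENSMUSG00000078597 for Cyp4a12b, ENSMUSG00000028715 for Cyp4a14, ENSMUSG00000066072 for Cyp4a10, ENSMUSG00000028712 for Cyp4a31 and ENSMUSG00000063929 for Cyp4a32.

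The close copies bear on how counts can be read. The coding sequences of Cyp4a12a and Cyp4a12b were 98.5% identical, with 23 differences in 1527 bases and a longest identical run of 342 bases. Those of Cyp4a10 and Cyp4a32 were 97.2% identical, those of Cyp4a10 and Cyp4a31 96.6%, and those of Cyp4a31 and Cyp4a32 96.0%. Cyp4a14 stood apart, at 76.1% to 77.2% identity with the other 5. The following 30-base coding stretches are shown because they hold bases by which a read can be placed within each set of copies. Capitals mark the bases that differ within the set, and each runs 5′ to 3′ on the plus strand. The stretch of Cyp4a12a is in exon 6 at chr4:115326652-115326681 and that of Cyp4a12b in exon 6 at chr4:115432905-115432934:
Cyp4a12a: agttgaggacctgaacGatctcGtttttTC
Cyp4a12b: agttgaggacctgaacAatctcTtttttCT

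In the other set, all in exon 12, the stretch of Cyp4a10 is at chr4:115532617-115532646, that of Cyp4a31 at chr4:115578022-115578051 and that of Cyp4a32 at chr4:115621520-115621549:
Cyp4a10: ctaccagggtCcccATgCccttagcCcgaC
Cyp4a31: ctaccagggtCcccATgTccttagcCcgaT
Cyp4a32: ctaccagggtTcccGAgCccttagcAcgaA

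Of all 50-base words in its transcripts, Cyp4a12a shared 48.9% with Cyp4a12b. Cyp4a32 shared 43.8% of its words with other genes, Cyp4a10 29.8% and Cyp4a31 20.6%. Cyp4a14 shared 0.235%, with the pseudogene Cyp4a30-ps. The sources used here do not say how reads matching several genes were counted. The division of counts within Cyp4a12a and Cyp4a12b, and within Cyp4a10, Cyp4a31 and Cyp4a32, is therefore uncertain, and their sums are given beside it. Cyp4a14 and the sums are the better determined values.

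The mature microRNA that the plasmid carries is given here with its seed, bases 2 to 8, in capitals, from RefSeq on GRCm38.p6 at chr1:20679055-20679076:
mmu-miR-206-3p: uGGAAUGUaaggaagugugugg

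The reverse complement of the seed, ACATTCC, was searched on the sense strand, taking for each gene its longest annotated 3′ UTR. The letters were found in 2117 of 21037 genes (10.1%). The 3′ UTRs of Cyp4a10 (521 bases), Cyp4a12a (813), Cyp4a12b (809), Cyp4a14 (943) and Cyp4a31 (1045) did not hold these letters, and Cyp4a32 has no annotated 3′ UTR. The Mir206 row of the table held 0 counts in each library, an upper limit of 0.722 CPM (counts per 1e6) in the shallowest. An mRNA library does not measure the mature microRNA, so the labels could not be checked on it.

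The libraries differed in depth and makeup between the groups. Totals were 8966590 to 15244017 counts in controls and 4157947 to 5724329 in miR-206 libraries. Mitochondrially encoded genes took 9.16% to 36.0% of control counts and 11.2% to 63.8% of miR-206 counts. Olfactory and vomeronasal receptor genes, which serve as a measure of background, had 1.27 to 3.08 counts per exonic kb in controls and 3.73 to 5.50 in miR-206 libraries. The 26 hepatocyte identity genes found in the table, led by plasma protein and liver enzyme genes, took 11.2% to 15% of nuclear counts in controls and 7.13% to 13.5% in miR-206 libraries. That summed share shows RNA of the list in both groups, not that each gene kept its level. Control 1 stood apart from the other controls, with r of 0.901 and 0.904 on log2 CPM across genes against 0.987 between controls 2 and 3. In every comparison below, libraries were scaled by the trimmed mean of M-values (TMM) unless another scale is named, and the edgeR quasi-likelihood F test called a gene at a Benjamini-Hochberg adjusted p under 0.05. It called 55.4% of genes tested, 29.6% lower and 25.8% higher in miR-206 libraries, and the median log2 fold change of all genes tested was 0.45.

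The Cyp4a genes were abundant in controls 2 and 3 and low in the other 4 libraries. Their summed counts were 1223, 16356 and 14102 in controls 1 to 3 and 710, 297 and 584 in miR-206 libraries 1 to 3. On the TMM scale the sums were 162, 1697 and 1597 CPM in controls and 89.8, 54.0 and 76.5 CPM in miR-206 libraries. Of the 6 genes, 5 were called lower in miR-206 libraries and none higher, where 29.6% of all genes tested were called lower. In 4 of the 6 all miR-206 libraries lay below all controls, as in 30.3% of all genes, whereas in 36.7% of all genes all miR-206 libraries lay above all controls. The genes were chosen on this contrast, so nothing is read from these counts. In bulk RNA, fewer cells that express a gene and less of its RNA per cell cannot be told apart.

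**Figure D1:**
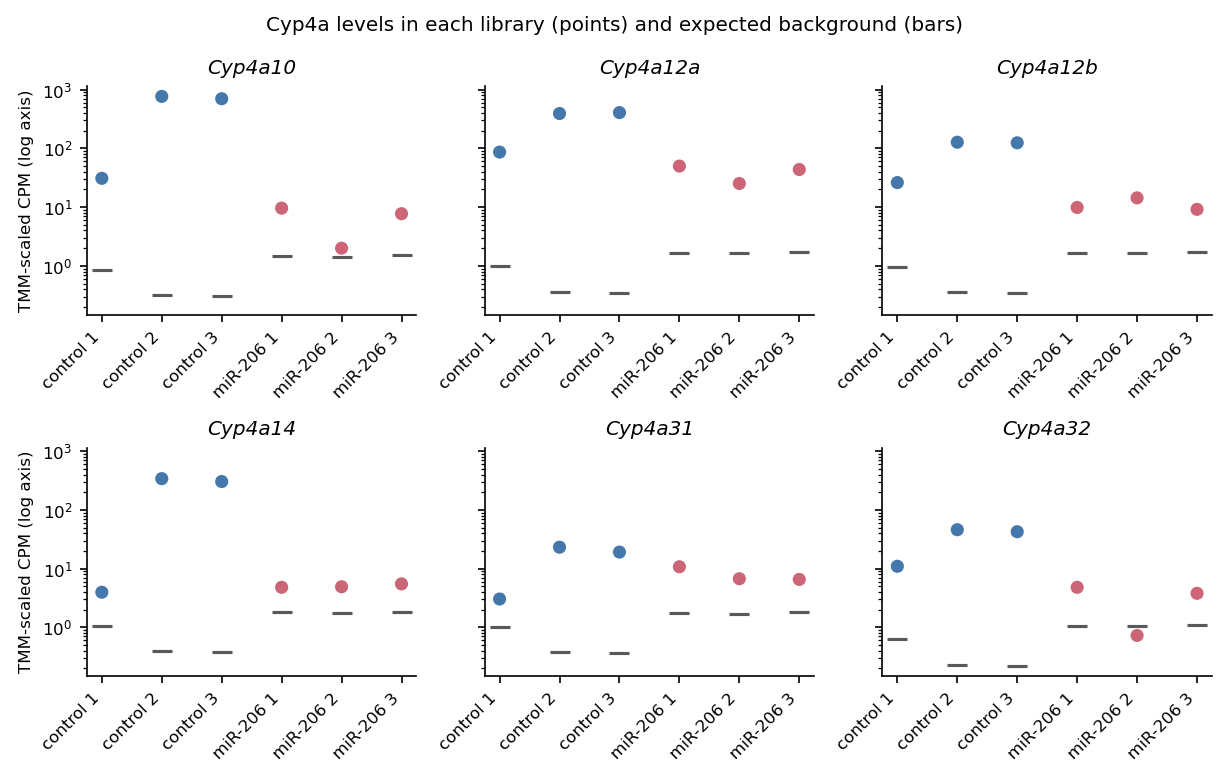
Level of each Cyp4a gene in the 6 libraries, in CPM after TMM scaling on a log axis. Points are single libraries (blue control, red miR-206) and short bars give the level that background of the receptor-gene density would give a gene of that length. Controls 2 and 3 stood highest in all 6 panels, and control 1 was the lowest control in each.

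Cyp4a10, the Ppara-induced member with the highest mean in controls, was counted 234, 7399 and 6185 times in controls and 76, 11 and 59 times in miR-206 libraries. After scaling this was 30.9, 768 and 701 CPM against 9.61, 2.00 and 7.72 CPM. All miR-206 libraries were below all controls, and control 1 lay nearer to the miR-206 libraries than to the other controls. The means were 500 ± 407 CPM (SD, n = 3) and 6.45 ± 3.96 CPM (SD, n = 3), with a fitted log2 fold change of -6.26 (SE 1.15). Against the expected background, Cyp4a10 stood at 6.55, 1.40 and 5.13 times in miR-206 libraries 1 to 3, so that in library 2 its 11 counts were close to background.

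Cyp4a14, the other textbook Ppara target, was counted 30, 3280 and 2682 times in controls and 38, 27 and 42 times in miR-206 libraries. Its levels were 3.96, 340 and 304 CPM in controls and 4.81, 4.91 and 5.50 CPM in miR-206 libraries. The groups overlapped, since control 1 lay below every miR-206 library while the other controls lay far above them. The means were 216 ± 185 CPM and 5.07 ± 0.373 CPM (SD, n = 3 each), with a log2 fold change of -5.41 (SE 1.20). Cyp4a14 was the member least affected by shared sequence, and in the miR-206 libraries it reached 2.66 to 2.96 times the expected background, against 3.75 times in control 1 and 811 to 869 times in the other controls.

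Cyp4a32, a near copy of Cyp4a10, followed it in direction. Its counts were 83, 443 and 375 in controls and 38, 4 and 29 in miR-206 libraries, which gave 33.1 ± 19.3 and 3.11 ± 2.12 CPM (SD, n = 3 each) and a log2 fold change of -3.37 (SE 0.66). Every miR-206 library lay below every control, and the 4 counts in miR-206 library 2 were under the expected background, at 0.70 times.

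Cyp4a31, the other near copy, had the lowest control level of the 6 per exonic kb in each control and moved least. It was counted 23, 223 and 169 times in controls and 85, 37 and 50 times in miR-206 libraries. Levels were 3.04, 23.1 and 19.1 CPM in controls and 10.8, 6.73 and 6.55 CPM in miR-206 libraries, so control 1 lay below all miR-206 libraries and controls 2 and 3 above them. The log2 fold change was -0.92 (SE 0.59), and it turned positive when libraries were scaled by library size alone (0.33) or by upper-quartile factors (0.06). Counts of Cyp4a10, Cyp4a31 and Cyp4a32 summed before the fit gave a log2 fold change of -4.96.

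Cyp4a12a, the 20-HETE-forming androgen-dependent member, was the highest of the family in all miR-206 libraries. It was counted 655, 3784 and 3593 times in controls and 395, 139 and 334 times in miR-206 libraries. Levels were 86.5, 393 and 407 CPM in controls and 49.97, 25.3 and 43.7 CPM in miR-206 libraries, with no overlap of the groups. The means of 295 ± 181 and 39.7 ± 12.8 CPM (SD, n = 3 each) gave a log2 fold change of -2.90 (SE 0.64). At 15.4 to 29.7 times the expected background, Cyp4a12a was the one member well above it in all miR-206 libraries.

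Cyp4a12b, its close copy, was counted 198, 1227 and 1098 times in controls and 78, 79 and 70 times in miR-206 libraries. The groups did not overlap, at 26.2 to 127 CPM against 9.16 to 14.4 CPM, and the log2 fold change was -3.06 (SE 0.59). With the counts of Cyp4a12a and Cyp4a12b summed the log2 fold change was -2.93. The ratio of Cyp4a12a to Cyp4a12b counts was 3.08 to 3.31 in controls and 1.76 to 5.06 in miR-206 libraries, so it varied more among miR-206 libraries than among controls.

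Levels compared between genes per exonic kb had a different order in the groups. In controls 2 and 3, Cyp4a10 led with 364 and 332 CPM per exonic kb, followed by Cyp4a12a with 162 and 168, Cyp4a14 with 131 and 117, Cyp4a12b with 53.2 and 51.9, Cyp4a32 with 29.9 and 27.7 and Cyp4a31 with 9.22 and 7.63. Every neighbouring step in that order exceeded the difference between these libraries. In the miR-206 libraries Cyp4a12a led with 10.4 to 20.6 CPM per exonic kb. The other members were lower, and among them Cyp4a12b at 3.83 to 6.00 overlapped in range with Cyp4a10 and Cyp4a31. Cyp4a10 was at 0.95 to 4.56, Cyp4a31 at 2.61 to 4.29, Cyp4a32 at 0.47 to 3.13 and Cyp4a14 at 1.85 to 2.11. In control 1 the order began as in the miR-206 libraries for its highest gene, with Cyp4a12a at 35.7, then Cyp4a10 at 14.7, Cyp4a12b at 10.9, Cyp4a32 at 7.14, Cyp4a14 at 1.52 and Cyp4a31 at 1.21.

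The share of each gene in the summed Cyp4a counts does not depend on how libraries are scaled. Cyp4a12a and Cyp4a12b together took 30.6% (95% Wilson interval 29.9% to 31.3%) and 33.3% (32.5% to 34.0%) in controls 2 and 3. They took 66.6% (63.1% to 70.0%), 73.4% (68.1% to 78.1%) and 69.2% (65.3% to 72.8%) in miR-206 libraries 1 to 3. In control 1 they took 69.7% (67.1% to 72.3%), inside the range of the miR-206 libraries. The intervals cover counting error only.

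Cyp4a14 made up 20.1% and 19.0% of the family in controls 2 and 3, 2.45% in control 1 and 5.35%, 9.09% and 7.19% in miR-206 libraries 1 to 3. Cyp4a10, Cyp4a31 and Cyp4a32 together made up 49.3% and 47.7% in controls 2 and 3, 27.8% in control 1 and 28.03%, 17.5% and 23.6% in miR-206 libraries. Within that set, Cyp4a31 had 0.0301 and 0.0273 counts for each count of Cyp4a10 in controls 2 and 3, 0.0983 in control 1 and 1.12, 3.36 and 0.847 in miR-206 libraries. The makeup of the family thus set controls 2 and 3 against the other 4 libraries for the summed groups, while for the ratio of Cyp4a31 to Cyp4a10 all miR-206 libraries lay above all controls. Taking off the expected background moved the share of Cyp4a12a and Cyp4a12b to 70.3%, 80.6% and 74.1% in miR-206 libraries and to 71.0% in control 1.

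**Figure D2:**
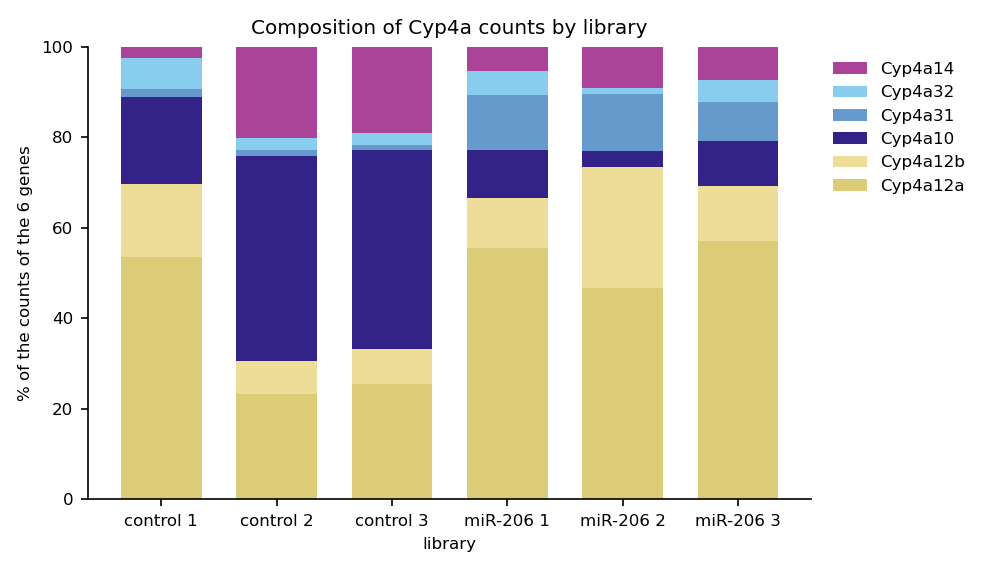
Share of the summed counts of the 6 Cyp4a genes taken by each gene in each library, as stacked bars from 0 to 100%. Controls 2 and 3 have the large Cyp4a10 and Cyp4a14 blocks, whereas in control 1 and the 3 miR-206 libraries Cyp4a12a and Cyp4a12b together take 66.6% to 73.4%.

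Control 1 was further from the other controls for the Cyp4a genes than for most genes. Its log2 CPM was below the mean of controls 2 and 3 by amounts that gave differences of -5.76 for Cyp4a14, -4.48 for Cyp4a10, -2.19 for Cyp4a31, -2.18 for Cyp4a12a, -2.18 for Cyp4a12b and -1.83 for Cyp4a32. The median difference over all genes tested was -0.09, and 0.0041% of genes had a lower value than Cyp4a14. All 6 members were lowest in control 1 among the controls, as were 48.7% of all genes tested. Control 1 also had the highest mitochondrial share of the controls (36.0% against 9.16% and 10.4%), the fewest counts, and more counts of cholangiocyte markers, at 3075 CPM in sum against 863 and 1067 CPM. The part of these in the lower Cyp4a levels was not tested. Without control 1 the log2 fold change of Cyp4a31 was -1.47 and that of Cyp4a14 -6.06.

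A scale set on hepatocyte RNA gave another picture of the size of the differences. For each 1000 counts of the hepatocyte identity list there were 1.90, 7.87 and 7.52 Cyp4a counts in controls and 1.42, 2.33 and 1.87 in miR-206 libraries. Control 1 lay between miR-206 libraries on this scale. Cyp4a10 stood at 36.3, 356 and 330 counts per 100000 hepatocyte-list counts in controls and 15.2, 8.64 and 18.9 in miR-206 libraries, still without overlap. Cyp4a14 stood at 4.66, 158 and 143 in controls and 7.60, 21.2 and 13.5 in miR-206 libraries.

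On the same scale Cyp4a12a stood at 102, 182 and 192 in controls and 79.05, 109 and 107 in miR-206 libraries, and the groups overlapped through control 1. Cyp4a12b overlapped too, at 30.7, 59.1 and 58.6 against 15.6, 62.1 and 22.5. Cyp4a31 was higher in every miR-206 library, at 17.0, 29.1 and 16.1, than in every control, at 3.57, 10.7 and 9.01. Cyp4a32 was lower in every miR-206 library, at 7.60, 3.14 and 9.31 against 12.9, 21.3 and 20.0. Its value in miR-206 library 2 rests on 4 counts, at 0.70 times the expected background. The share of all genes that separate the groups on this scale is not given. In the fit on this scale 54.6% of all genes tested were called higher and 3.35% lower, so nothing particular to Cyp4a31 is read from its separation. The members were chosen with lower counts already known, so nothing is read from the separation of Cyp4a10 or Cyp4a32 either. Cyp4a31 stood at 3.66 to 6.16 times the expected background in miR-206 libraries.

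**Figure D3:**
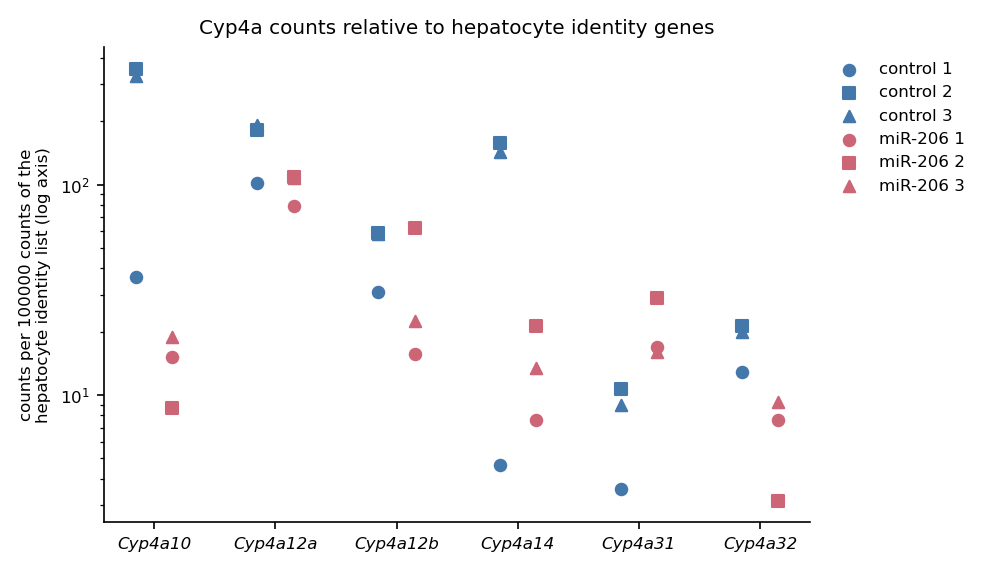
Counts of each Cyp4a gene per 100000 counts of the hepatocyte identity list, on a log axis, with controls in blue and miR-206 libraries in red and a marker shape for each replicate number. Cyp4a10 and Cyp4a32 separate the groups downward and Cyp4a31 upward, and control 1 lies within or below the miR-206 range for Cyp4a12a, Cyp4a12b, Cyp4a14 and Cyp4a31. In the fit on this scale 54.6% of all genes tested were called higher and 3.35% lower. The share of all genes that separate the groups on this scale is not given, so nothing is read from these separations.

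When the edgeR fit itself was scaled on the hepatocyte list, the median log2 fold change of all genes tested became 2.29, and 3.35% of genes were called lower and 54.6% higher. The differences were -4.05 (SE 0.67) for Cyp4a10, -2.89 (SE 0.81) for Cyp4a14, -1.40 (SE 0.76) for Cyp4a32, -0.69 (SE 0.50) for Cyp4a12a, -0.59 (SE 0.62) for Cyp4a12b and 1.39 (SE 0.74) for Cyp4a31. In another fit the receptor-gene background was taken off. Only nuclear protein-coding genes were kept whose mean counts over the 6 libraries reached 10 times the mean background. A gene can thus pass through its control counts alone. There 4168 genes were tested, 15.4% were called lower and 19.3% higher, and the median was -0.13. Members other than Cyp4a12a averaged 2.80 to 6.46 times background in miR-206 libraries, so they passed this minimum only through their control counts. There Cyp4a10 was at -3.28 (SE 0.98), Cyp4a14 at -2.68 (SE 1.08), Cyp4a32 at -0.69 (SE 0.87), Cyp4a12b at -0.07 (SE 0.37), Cyp4a12a at 0.25 (SE 0.38) and Cyp4a31 at 2.06 (SE 0.61). The fitted difference was below 0 in all 20 alternative settings tried for Cyp4a10, Cyp4a12b, Cyp4a14 and Cyp4a32, although for Cyp4a12b it came as near to 0 as -0.07. In the setting with close copies summed, the value of the sum stood for each of its genes. The sign changed in 1 setting for Cyp4a12a and in 6 for Cyp4a31.

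**Figure D4:**
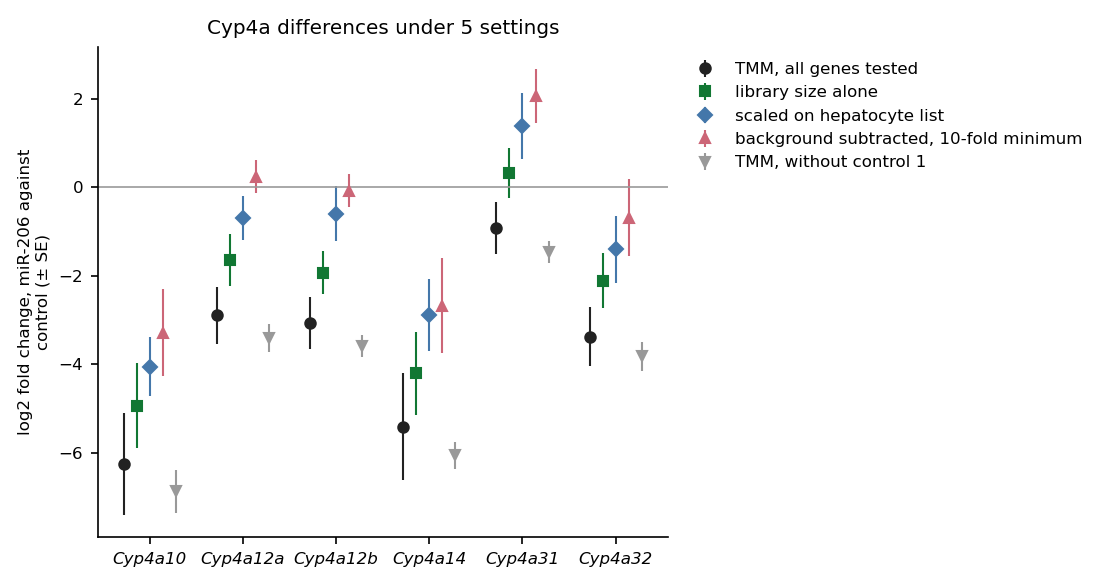
Log2 fold change of each Cyp4a gene, miR-206 against control, with its standard error, under 5 settings of the edgeR fit. Cyp4a10 and Cyp4a14 stay below 0 under all 5, Cyp4a12a and Cyp4a12b come close to 0 with the 10-fold background minimum, and Cyp4a31 lies on either side of 0.

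Ppara, the receptor that induces Cyp4a10 and Cyp4a14, was lower in miR-206 libraries on the TMM scale. It stood at 27.1, 139 and 117 CPM in controls and 7.59, 10.4 and 8.38 CPM in miR-206 libraries, a difference of -3.43 on the log2 scale (SE 0.59, adjusted p = 0.00115 by edgeR). Rxra, its partner, was at 44.3, 195 and 196 CPM against 11.4, 19.6 and 11.9 CPM (log2 fold change -3.34, edgeR adjusted p = 0.00152). Rxrb fell to a mean of 0.82 times the expected background, so its size of change is not given. Control 1 was the lowest control for each of these receptors. Ppargc1a, a coactivator of Ppara, fell by 0.90 (edgeR adjusted p = 0.0324), from 23.1 ± 4.64 to 12.4 ± 2.72 CPM (SD, n = 3 each). In miR-206 libraries Ppara averaged 3.21 times the expected background, Rxra 3.60 times and Ppargc1a 2.76 times. Of 12 tested genes for Ppara, its partners, coactivators and corepressors, 9 fell, none rose and the median log2 fold change was -1.42. Of all genes tested 29.6% fell and 25.8% rose. Scaled on the hepatocyte list none of the 12 fell and 3 rose, where 3.35% of all genes were lower and 54.6% higher, with Ppara at -0.997 and Rxra at -0.85, not called, and Ppargc1a at 1.03. With the 10-fold minimum Ppara was at -0.72 and Rxra at -0.58, and of 3 genes tested none fell and 1 rose, where 15.4% of all genes were lower and 19.3% higher. Ppara and Rxra passed that minimum only through their control counts.

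Other genes that Ppara is known to induce were lower with the family on the TMM scale. Of 31 in the list, 30 were tested, 29 fell and none rose, beside 29.6% lower and 25.8% higher of all genes. The median log2 fold change was -3.70 against 0.45 for all genes tested. Acot4 did not pass (log2 fold change -1.46), and Fgf21 was too low to test. Ech1, a peroxisomal and mitochondrial isomerase of fatty acid oxidation, fell by 4.11 (SE 0.53, edgeR adjusted p = 0.000337), and Acadvl, the very-long-chain acyl-CoA dehydrogenase, by 4.14. Acadm, the medium-chain dehydrogenase, fell by 3.57, Hadha, of the mitochondrial trifunctional protein, by 3.21, and Plin2, which coats lipid droplets, by 4.27. In all these 5 genes the groups did not overlap. They were named for the smallest p of the list in this same edgeR fit, so nothing is read from their separation. Of the 30 tested genes in the list, 27 were separated downward without overlap, beside 30.3% of all genes tested.

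The list was also lower in control 1. Its summed level was 5218 CPM in control 1, 22326 and 21296 CPM in controls 2 and 3 and 884 to 1155 CPM in miR-206 libraries, and 29 of the 30 tested genes were lowest in control 1 among the controls, where 48.7% of all genes were. Per 1000 hepatocyte-list counts it stood at 61.3, 104 and 100.2 in controls and 13.99, 49.9 and 25.9 in miR-206 libraries, so that here, unlike for the summed Cyp4a counts, control 1 lay above every miR-206 library. Scaled on the hepatocyte list 15 of the 30 fell and none rose, beside 3.35% lower and 54.6% higher of all genes. After background subtraction with the 10-fold minimum, 10 of 26 fell and 2 rose, with a median of -0.90. All genes there were 15.4% lower and 19.3% higher. Ech1, Acadvl and Plin2 were called lower under both. Acadvl and Plin2 averaged less than 10 times the expected background in miR-206 libraries, so they passed the minimum only through their control counts.

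**Figure D5:**
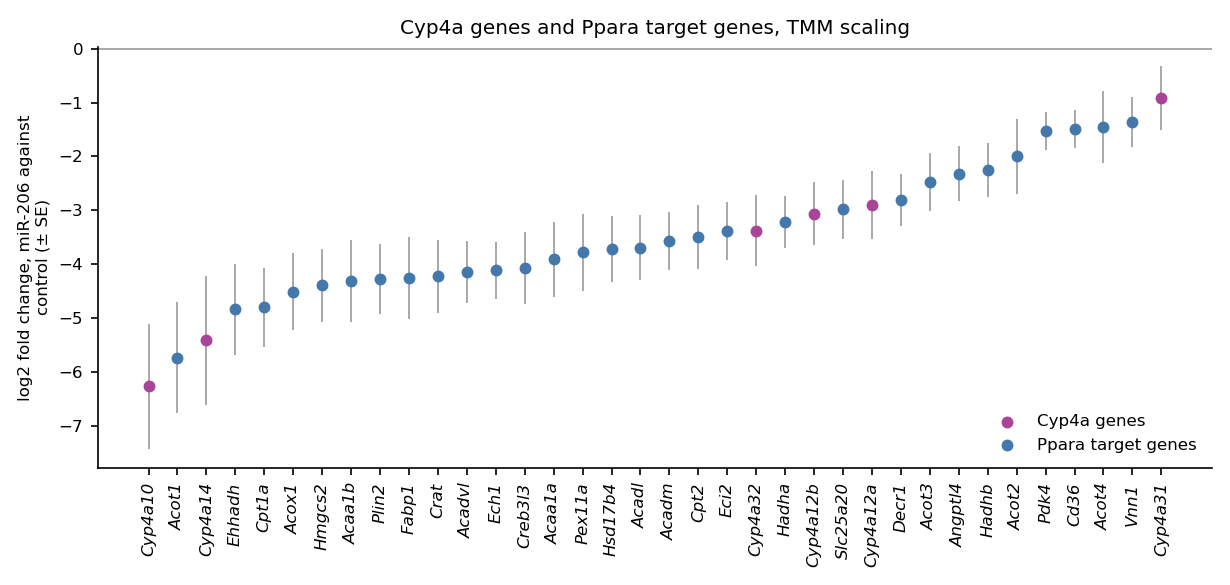
Log2 fold change with its standard error for the 6 Cyp4a genes (purple) and 30 tested Ppara target genes (blue), ordered by value, on the TMM scale. Cyp4a10 has the lowest and Cyp4a31 the highest value of those drawn, and all lie below 0.

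Genes that serve the Cyp4a reaction and its products were lower on the TMM scale as well. All 4 electron donor genes fell, beside 29.6% of all genes tested. Por, which passes electrons to microsomal P450s, went from 240, 1162 and 1138 CPM in controls to 40.2, 32.6 and 36.5 CPM in miR-206 libraries (log2 fold change -4.54, SE 0.70, edgeR adjusted p = 0.000657), and it was also called lower on the hepatocyte scale (-2.21) and with the 10-fold minimum (-1.44). Cyb5a, cytochrome b5, fell by 3.34 and its reductase Cyb5r3 by 3.27, but with the 10-fold minimum they were at -0.29 and -0.32. Of 16 genes for dicarboxylic acid handling, 14 fell and 1 rose, beside 29.6% lower and 25.8% higher of all genes. Adh1, an alcohol dehydrogenase, was at -4.08 and Abcd3, a peroxisomal importer of dicarboxylic acids, at -4.02. On the hepatocyte scale 2 of the 4 electron donor genes fell, and 4 of these 16 fell and 2 rose, beside 3.35% and 54.6% of all genes. With the 10-fold minimum 1 of the 4 electron donor genes fell. Of 13 dicarboxylic acid genes tested there 2 fell and 2 rose, near the 15.4% lower and 19.3% higher of all genes.

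Among 14 other Cyp4 genes, 7 fell and 2 rose, beside 29.6% lower and 25.8% higher of all genes, with a median of -1.45. Cyp4v3 (-4.56), Cyp4b1 (-3.85) and Cyp4f14, an omega-hydroxylase of leukotriene B4 (-3.10), fell with no overlap between groups. They were named for the smallest p of the list in this fit, so nothing is read from their separation. Of the 14 genes, 7 were separated downward without overlap, beside 30.3% of all genes tested. The 2 that rose, named after their values were seen, were Cyp4a29, a neighbour of Cyp4a12a, at 1.75 ± 0.743 CPM in controls against 5.60 ± 0.448 CPM, and Cyp4f37, at 0.642 ± 0.623 and 4.56 ± 0.0184 CPM (SD, n = 3 each). Cyp4a29 stood at 5.30 times the expected background in miR-206 libraries, Cyp4f37 at 2.27 times and Cyp4b1 at 2.33 times. On the hepatocyte scale 2 of the 14 fell and 5 rose, beside 3.35% lower and 54.6% higher of all genes. With the 10-fold minimum 1 of 5 tested fell and none rose, beside 15.4% lower and 19.3% higher.

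Enzymes that act on arachidonic acid beside Cyp4a12a moved down on the TMM scale in 11 of 13 tested genes, with none higher. Of all genes 29.6% were lower and 25.8% higher on that scale. Log2 fold changes were -2.69 for Cyp2j6, -3.86 for Ephx2, which opens fatty acid epoxides, and -3.12 for the epoxygenase Cyp2j5. On the hepatocyte scale 2 of the 13 fell and 1 rose, and with the 10-fold minimum none of 11 fell and 4 rose. The shares of all genes were 3.35% lower and 54.6% higher in the former and 15.4% and 19.3% in the latter.

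Cyp4a12a and Cyp4a12b share their male bias with a set of liver genes under growth hormone and androgen control. All 11 male-biased genes fell, beside 29.6% of all genes tested, with a median log2 fold change of -2.55. Gstp1, a glutathione transferase, fell by 5.70 (SE 0.83, edgeR adjusted p = 0.00052), Selenbp2 by 3.66 and Cyp7b1, an oxysterol hydroxylase, by 2.83. In the control libraries Selenbp2 was highest in control 1, at 269 CPM against 96.5 and 123 CPM, unlike the Cyp4a genes. Of 8 female-biased genes tested, 1 fell and 1 rose, beside 29.6% lower and 25.8% higher of all genes. Cyp2a4 fell by 5.11, but its levels of 1.85, 174 and 175 CPM in controls and 2.28, 3.64 and 4.19 CPM in miR-206 libraries overlapped through control 1, as those of Cyp4a14 did. Cyp3a16 rose by 2.25 from a mean of 0.783 to 3.897 CPM, and Cux2, a repressor of male-biased genes, was at 0.76 and did not pass.

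Of 8 genes for growth hormone and androgen signalling 3 fell, a share near the 29.6% of all genes called lower. They were Stat5b (-1.82), Ghr, the growth hormone receptor (-2.03), and Bcl6 (-0.95). Their direction depends on the scale, with Stat5b at 0.45, Ghr at 0.13 and Bcl6 at 1.10 on the hepatocyte scale and Ghr at 1.02 (called higher) with the 10-fold minimum. For the male-biased list, 4 of 11 fell and none rose on the hepatocyte scale, beside 3.35% lower and 54.6% higher of all genes. With the 10-fold minimum 2 of 10 fell and 2 rose, near the 15.4% lower and 19.3% higher of all genes, and Cyp7b1 was at 0.04.

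The genes whose pattern over the 6 libraries was nearest to each of 3 members were ranked among 11393 tested protein-coding genes by the root-mean-square difference of centred log2 CPM. Nearest to Cyp4a10 were Mt2, a metallothionein (0.462), G0s2, an inhibitor of lipolysis and a Ppara target (0.690), and St3gal5 (0.793). Mt2 was at 31, 1894 and 1843 counts in controls and at 7, 0 and 0 in miR-206 libraries. Nearest to Cyp4a14 were Cyp2a4 (0.249), Acot1, a cytosolic acyl-CoA thioesterase induced by Ppara (0.649), and Saa4 (0.681), all with a low control 1. Nearest to Cyp4a12a were Usf2 (0.0792), Abhd6 (0.110) and Gfra1 (0.143). Within the family the closest match by this measure was Cyp4a12a with Cyp4a32 (0.179), closer than Cyp4a12a with its near copy Cyp4a12b (0.450). The most distant was Cyp4a10 with Cyp4a31 (2.45). The measure adds 2 to each CPM, which shrinks differences at low levels. Cyp4a32 had 38, 4 and 29 counts in miR-206 libraries, so its rank above Cyp4a12b is uncertain. These likenesses are over 6 libraries that share the same group difference and depth. They are also uncertain for genes with few counts in miR-206 libraries, such as Mt2 and Usf2, the latter with 22, 5 and 21.

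Levels of several marker lists of other liver cells differed between the groups. All 10 Kupffer cell markers fell, and their summed level was 345 to 1558 CPM in controls and 43.5 to 55.8 CPM in miR-206 libraries. All 10 sinusoidal endothelial markers fell (559 to 620 against 131 to 144 CPM), as did 7 of 10 stellate cell markers (300.4 to 931 against 119 to 140 CPM) and 5 of 6 tested cholangiocyte markers (863 to 3075 against 36.4 to 97.9 CPM). Of 10 lymphocyte markers 4 fell and 3 rose (380 to 420 against 77.1 to 90.3 CPM). Of 7 neutrophil and red cell markers 3 fell and none rose (44.3 to 175 against 22.01 to 46.1 CPM). For all these lists the shares of all genes were 29.6% lower and 25.8% higher. Of the 26 hepatocyte identity genes 19 fell and none rose, with a median of -2.21, so most hepatocyte genes were lower too on this scale. On the hepatocyte scale, where 3.35% of all genes were lower and 54.6% higher, 6 of 10 Kupffer cell markers, 3 of 6 cholangiocyte markers and 1 of 10 sinusoidal endothelial markers fell and none rose. On that scale 2 stellate cell markers fell and 1 rose, 3 lymphocyte markers fell and 5 rose, and no neutrophil or red cell marker fell and 1 rose. No marker of these lists was at 0 in all miR-206 libraries. The part of these differences, and of the higher background in miR-206 libraries, in the Cyp4a levels was not tested beyond the scaled and background-subtracted values above.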

How the data were processed

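RNA was sequenced from 6 libraries of sorted hepatocytes, made from column-purified total RNA with a SMARTER mRNA-Seq kit, per the labels' protocols. The values are the authors' raw counts for each Ensembl gene as deposited, whole numbers without normalisation, 1 column per sample. Builds GRCm 38 and mm 10 are named in the submitters' processing notes. The sources used here do not give the aligner, counting program, annotation release or strand setting. No row is a total or an unassigned class, and 174 of 49315 genes have no symbol. Positions, exon lengths and transcript sequences came from GENCODE M21, in which 48970 genes were matched by identifier.

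Genes were filtered with filterByExpr (minimum count 10), scaled by TMM and tested with edgeR 4.0.16 (quasi-likelihood F test, robust, group as the single term), with p adjusted by Benjamini and Hochberg over all genes tested. Standard errors were derived from the F statistic, and log2 CPM is log2(CPM + 2) after TMM scaling. Alternatives used limma 3.58.1 (voom), DESeq2 1.42.0, other scale factors, a scale set on the hepatocyte list, background subtraction from 1913 receptor genes (5756 exonic kb), summed paralogs and each library left out. The fit was also run on simulated data. These lacked the differences in background and makeup between the libraries, so they do not test the fit under those. R 4.3.3, Python 3.11.15, pandas 2.3.3, numpy 2.4.6, matplotlib 3.10.9 and MAFFT 7.526 were used. Total counts of 4157947 to 15244017 set the precision. Intervals are 95% Wilson intervals, and a count of 0 allows up to 3 counts.

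The Cyp4a genes, the gene lists and the settings were chosen with earlier results of these data known. Genes named are the 6 members, Ppara, Rxra and Ppargc1a, the 3 genes of smallest p in each functional list (5 for Ppara targets), and the 3 protein-coding genes with a mean of at least 5 CPM nearest in pattern to Cyp4a10, Cyp4a14 and Cyp4a12a. Of the genes this rule names, 1 is not reported here. Any other gene was named after its values were seen.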

Additional observations from a re-analysis of the deposited data

How the results depend on the processing

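The TMM fit called 7213 genes lower and 6289 higher. Library size alone gave 3774 and 11642, upper-quartile factors 4812 and 10629, hepatocyte scaling 817 and 13305, and background subtraction with the 10-fold minimum 643 and 803. The 2 settings chosen after seeing the data were the 10-fold minimum on a ratio averaged over libraries (1299 lower and 1186 higher) and background subtraction with hepatocyte scaling (2196 lower and 6094 higher). With each library left out in turn, 6202 to 8858 genes were lower and 1916 to 10674 higher, the latter with 10674 without control 1, 4185 without control 3 and 2109, 2966 and 1916 without miR-206 libraries 1, 2 and 3. Of the 6 Cyp4a genes, which were chosen on this contrast, 5 called lower became 2 with hepatocyte scaling, 1 with either 10-fold minimum and 2 with background subtraction and hepatocyte scaling, and 5 to 6 with libraries left out, while 1 was called higher with the 10-fold minimum. Of the Ppara targets, 29 called lower became 15 with hepatocyte scaling, 10 with the 10-fold minimum, 16 on the averaged ratio and 16 with background subtraction and hepatocyte scaling, and 27 to 31 with libraries left out, and 2 were called higher under either 10-fold minimum. The 10-fold minimum tests fewer genes (4168). For the other changes the cause was not tested.

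The sign changed for Cyp4a31 with upper-quartile factors (0.057), library size alone (0.33), hepatocyte scaling (1.39), the 10-fold minimum (2.06), the averaged ratio (1.73) and background subtraction with hepatocyte scaling (1.12). With the 10-fold minimum it changed for Cyp4a12a (0.25), Cyp7b1 (0.041), Abhd6 (0.037), Gfra1 (0.18) and Ghr (1.02). Ghr was at 0.13 with hepatocyte scaling, 0.71 on the averaged ratio and 0.049 with background subtraction and hepatocyte scaling. Ppargc1a was at 0.21 with library size alone, 1.03 with hepatocyte scaling, 1.17 on the averaged ratio and 0.43 with background subtraction and hepatocyte scaling, and Bcl6 at 0.21 with library size alone, 1.10 with hepatocyte scaling and 0.30 with background subtraction and hepatocyte scaling. Stat5b was at 0.45 with hepatocyte scaling. A fit with the replicate block called 6697 genes lower and 5362 higher, 5 Cyp4a genes and 27 Ppara targets lower. Deviations from the group means of same-numbered libraries had correlations of 0.0023, 0.0103 and -0.0054, so the numbers are not shown to pair the libraries. DESeq2 called 7949 genes lower and 5125 higher, and the same number of Cyp4a genes, 5. In the miR-206 libraries depth limits Cyp4a10 and Cyp4a32, which had 11 and 4 counts in library 2.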
